A study of Drosophila melanogaster with 21 samples.

Results

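L1 neurons are monopolar neurons of the fly lamina, the first optic neuropil, and they receive input from photoreceptors of the compound eye. They release glutamate and make their synapses in the second part of pupal development. The state described here is that of L1 neurons at 60 h after puparium formation in wild-type Drosophila melanogaster, taken as the 3 RNA-seq and 2 ATAC-seq libraries labelled with that age, 5 of the 21 samples of the series. The cells had been purified from brains by fluorescence-activated cell sorting. The age, genotype, cell type and tissue came from the labels. The sources used here do not name the driver or marker of the sort, the number of animals, or whether replicates were separate sorts. RNA libraries had been made from polyadenylated RNA with SMART-seq2, a full-length method for small inputs, and ATAC libraries with a modified Buenrostro protocol. L1 neurons of the same genotype at 40 h (2 RNA and 2 ATAC libraries) and at 72 h (2 and 2) serve below only to show where 60 h differs, and 8 single-cell samples were not analysed here.

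RNA-seq reads show how much of each transcript a population of cells holds. ATAC-seq reads come from DNA that a transposase could reach, and the start sites of active genes, enhancers and insulators are known for such open chromatin. A gene whose start is open need not be transcribed at a high rate, and RNA stability adds to the level of a transcript. At this age lamina neurons are known to build synapses while the hormone ecdysone, acting through a cascade of nuclear receptors and their targets, sets the order of events in the pupa.

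The RNA table held 7076 genes in RPKM, a read count divided by gene length and by library size, so that levels can be set side by side between genes, and the ATAC table held 26121 peaks. The deposited ATAC values carried no unit. They were read as RPKM of each peak. For 100% of them, value times width times an effective library size gave a whole number of reads (tolerance 0.1). At 40 h the reads in peaks (19.8 and 18.0 M) exceeded that size (18.3 and 14.4 M). The size is therefore a scaling factor and need not be the number of reads of a library. The effective sizes of the RNA libraries at 60 h were estimated at 28.5, 22.1 and 24.4 M reads, and those of the ATAC libraries at 15.9 and 13.8 M reads. A peak had a median of 292 reads in ATAC replicate 1 and 279 in replicate 2. Library pairs at 60 h correlated across genes at 0.984 to 0.987 for RNA, and across peaks at 0.848 for ATAC (Pearson's r of log2 values, a description over 7076 genes and 26121 peaks that share libraries).

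The labelled cell type was compared with its markers. VGlut, the vesicular glutamate transporter, had 282, 330 and 324 RPKM, and svp, a nuclear receptor gene used as an L1 marker, had 123, 113 and 109 RPKM. The summed level of 5 markers of other lamina neurons was 3.97, 10.5 and 9.98 RPKM, and that of 2 cholinergic markers 3.66, 7.60 and 5.64 RPKM. Both lists therefore lay far under the L1 markers in every library. Glial markers (10 of 15 listed were in the table) summed to 102, 57.4 and 76.1 RPKM. Their means ran from 0.630 RPKM (moody) to 24.0 RPKM (Gat, with 27.3, 17.2 and 27.4 RPKM). The glial homeobox gene repo had 0.235, 0.846 and 1.93 RPKM. This list summed to 25.2 and 43.0 RPKM in the 40 h libraries and to 552 and 1674 RPKM in the 72 h libraries. The part of glial RNA in the differences between 60 h and 72 h was not tested. Progenitor markers and muscle and fat body markers, 2 of each in the table, summed to 0.757 to 2.71 RPKM and 0.995 to 2.29 RPKM. Of 9 hemocyte markers 5 were in the table. Their sum of 414, 270 and 271 RPKM was mostly Pxn, which encodes peroxidasin (373, 226 and 222 RPKM). The next was crq at 38.9, 42.3 and 46.9 RPKM. Col4a1 and vkg averaged 0.997 and 0.820 RPKM, and Hml had 0.0239, 0.0385 and 0.129 RPKM. Of 10 GABAergic and monoaminergic markers 5 were in the table and summed to 98.5, 58.9 and 76.8 RPKM, led by Tbh, tyramine beta-hydroxylase (71.9, 36.0 and 44.2 RPKM). No marker in the table was at 0 in any library at 60 h. At 60 h, photoreceptor markers (400, 707 and 197 RPKM) and hemocyte markers had the highest sums among the lists of other cell types. The photoreceptor genes are described with the spread between libraries below.

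RNA at 60 h was concentrated in few genes. The summed RPKM was 460927, 462449 and 443881 in the 3 libraries. The mean level over the libraries had quartiles of 5.46, 16.6 and 44.4 RPKM. Of the 7076 genes, 6498 (91.8%) averaged at least 1 RPKM, 838 at least 100 RPKM and 49 at least 1000 RPKM. The 100 most abundant genes held 32.9%, 33.4% and 31.2% of the summed RPKM, and the 500 most abundant 61.7%, 61.6% and 60.7%.

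The most abundant transcript was lncRNA:noe, a long noncoding RNA, at 26534.5, 32998.7 and 22356.3 RPKM. It made up 5.76%, 7.14% and 5.04% of the summed RPKM, and no other gene came near it in any library. The large ribosomal RNA of the mitochondrial ribosome, mt:lrRNA, followed at 7371, 7459 and 4094 RPKM, lowest in replicate 3. CG7781 was the third at 2719, 2843 and 2862 RPKM, with libraries close to each other. Below these 3, the ranking to the 25th gene ran without a gap down to 1370 RPKM.

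Genes for ATP supply filled much of that ranking. The ATP synthase gene ATPsynC, for the ring of the membrane sector, averaged 2526 ± 150 RPKM (SD, n = 3, as for all means of RNA at 60 h). ATPsynbeta, for the catalytic subunit, averaged 2431 ± 150 RPKM, blw, for the alpha subunit, 1780 ± 47 RPKM, and ATPsynF 1392 ± 92 RPKM. These ATP synthase genes differed little between libraries. The ADP/ATP carrier gene sesB averaged 2142 ± 168 RPKM. Of cytochrome c oxidase, the mitochondrially encoded mt:CoIII (2137 ± 328 RPKM) and mt:CoI (1644 ± 305 RPKM) and the nuclear levy (1591 ± 13 RPKM) were in the ranking, as was Cyt-c-p, the gene for cytochrome c, at 1073, 1569 and 1467 RPKM. The glycolytic gene Gapdh2 averaged 1476 ± 17 RPKM. The sodium pump gene Atpalpha, whose product uses much of a neuron's ATP, had 1781, 1890 and 2109 RPKM.

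The other genes of the 25 had mixed roles. The cytoskeleton was represented by alphaTub84B, an alpha-tubulin gene (2196 ± 377 RPKM), and pnut, a septin gene (1783 ± 19 RPKM). Protein synthesis and folding were represented by RpL40, which encodes a ubiquitin fused to a ribosomal protein (1857 ± 154 RPKM), eEF1alpha2, an elongation factor gene (1397 ± 146 RPKM), Hsc70-4, a constitutive chaperone gene (1815 ± 27 RPKM), and Cyp1, a peptidyl-prolyl isomerase gene (1438 ± 20 RPKM). His4r, a histone H4 gene outside the histone cluster, averaged 1660 ± 87 RPKM. The ABC transporter gene w, known for carrying pigment precursors in the eye, averaged 2034 ± 45 RPKM. CG46448 (2328 ± 125 RPKM), CG9813 (2105 ± 75 RPKM) and CG7630 (1502 ± 45 RPKM) are named by number in the table. The sources used here do not say how reads of near-identical copies, such as those of histone, tubulin and ubiquitin genes, were divided.

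**Figure D1:**
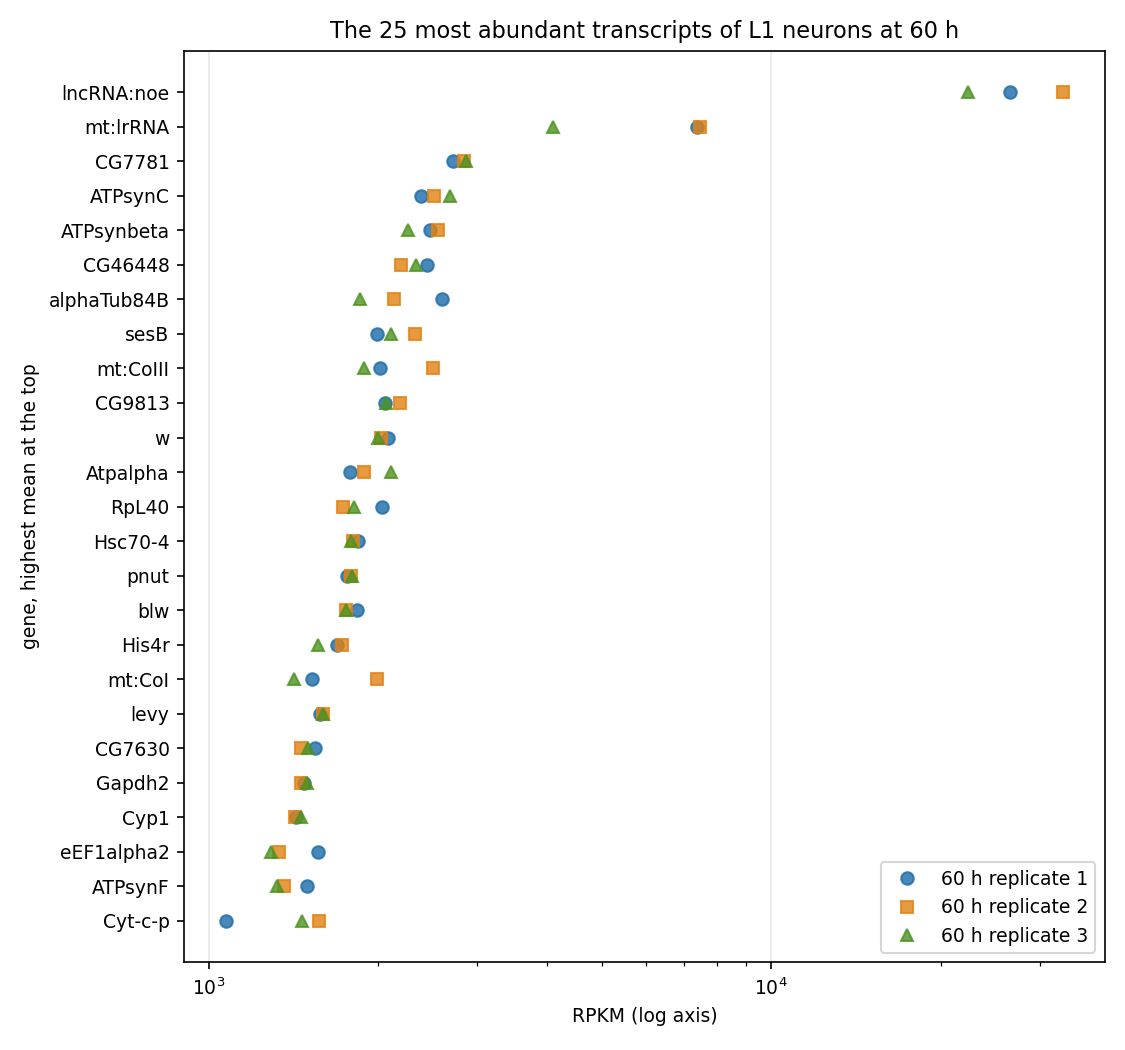
RNA level of the 25 most abundant genes at 60 h, in RPKM on a log axis, with 1 point for each of the 3 libraries. lncRNA:noe lies apart at 22356.3 to 32998.7 RPKM, and mt:lrRNA follows at 4094 to 7459 RPKM.

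The 25 most abundant genes were set against the neighbouring ages in a limma fit over all genes on log2(RPKM + 1), with p-values adjusted over 6939 genes. P-values in this fit measure only the spread between these libraries, which may be technical. Of the 25, 18 were called higher and 1 lower (alphaTub84B) at 60 h than at 40 h, where 25.2% of all genes tested were called higher and 22.5% lower. Set against 72 h, 5 were called higher and 13 lower at 60 h, where 16.4% of all genes tested were called higher and 16.6% lower. The 25 were ranked on the same 60 h values, which favours calls higher at 60 h. The counts therefore describe these genes and do not test them as a set. CG7781 was higher at 60 h than at either age, with a mean of 828 RPKM at 40 h, 2808 RPKM at 60 h and 1356 RPKM at 72 h. Its log2 difference was 1.76 ± 0.12 (SE, adjusted p = 6.8e-07) from 40 h and 1.05 ± 0.12 (SE, adjusted p = 8.2e-05) from 72 h. The elongation factor gene eEF1alpha2 had 1564, 1333 and 1293 RPKM at 60 h, against a mean of 348 RPKM at 72 h, a log2 difference of 2.01 ± 0.14 (SE, adjusted p = 6.0e-06), while the difference from 40 h missed the threshold (adjusted p = 0.40). Cyt-c-p averaged 205 RPKM at 40 h, 1370 RPKM at 60 h and 4537 RPKM at 72 h, the widest span of the 25 genes that were called in both comparisons. lncRNA:noe averaged 27296.5 RPKM at 60 h against 14495.3 RPKM at 40 h (log2 difference 0.94 ± 0.32, SE, adjusted p = 0.033). That call was lost without 40 h replicate 2 or without 60 h replicate 1 or 2.

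Not all of these calls held when 1 library was left out. Of the 19 against 40 h, 3 were lost in at least 1 such fit (lncRNA:noe, mt:CoI and mt:CoIII). Of the 18 against 72 h, 7 were lost (ATPsynF, Atpalpha, CG46448, Hsc70-4, alphaTub84B, blw and mt:lrRNA). The 5 called higher than at 72 h became 3 without 60 h replicate 3 or 72 h replicate 1, and 2 without any 1 of the other 3 libraries of these ages. With quantile normalization, which forces the libraries to 1 distribution, 3 of the 25 were lower than at 40 h, 10 were higher and 4 lower than at 72 h, and no call changed sign in any alternative. In bulk samples, fewer cells of a type and less RNA per cell cannot be told apart.

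Gene lists gave the make-up of the transcriptome by function. Cytosolic ribosome genes (86 in the table) held the largest share of summed RPKM among the lists at 11.7 ± 1.0% (SD, n = 3), with a median of 622 RPKM per gene. At 40 h the libraries had 13.8% and 14.3%, at 60 h 12.6%, 10.6% and 11.9%, and at 72 h 8.88% and 10.5%. The summed RPKM of the list did not fall in this way. It was 50510.8 to 56941.1 RPKM at 40 h, 49234.5 to 58231.1 RPKM at 60 h and 50455.5 to 55667.4 RPKM at 72 h. Shares here and below depend on the total over all genes as well as on the list. RpL40, RpLP2 (1348 ± 283 RPKM), for a protein of the ribosomal stalk, and RpS27A (1249 ± 67 RPKM), the other ubiquitin fusion, led the list. Of the 86 genes 9 (10.5%) were called lower than at 40 h, and 4 (4.65%) higher and 7 (8.14%) lower than at 72 h. Each share was under that of all genes tested. For this list and those below, 25.2% of all genes were called higher and 22.5% lower than at 40 h. Against 72 h, 16.4% of all genes were called higher and 16.6% lower. These ribosomal counts depended on the scaling: with quantile normalization 43 were lower than at 40 h, and 45 were higher and 0 lower than at 72 h. They also depended on single libraries. The 9 became 4 without 40 h replicate 1 and 5 without 60 h replicate 2, the 4 became 2 without 72 h replicate 1 and 8 without 72 h replicate 2, and the 7 became 4 without 60 h replicate 2 or 72 h replicate 2.

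Oxidative phosphorylation genes (67, encoded in the nucleus) held 9.09 ± 0.11% and varied less between libraries than the ribosomal list did. Their median was 416 RPKM, and 66 of 67 were at or above 100 RPKM. Their share at 60 h lay between those of the neighbouring ages. At 40 h the libraries had 4.98% and 5.09%, at 60 h 9.02%, 9.03% and 9.21%, and at 72 h 11.7% and 12.7%. Of these 67 genes, 65 were called higher than at 40 h and 65 were called lower than at 72 h, and with quantile normalization 64 and 32 were. The 11 genes of the mitochondrial genome, which encodes a small set of respiratory subunits and ribosomal RNAs, held 2.79%, 3.13% and 2.13%. They were led by mt:lrRNA, mt:CoIII and mt:CoI. Of the 11, 2 were called higher than at 40 h (0 with quantile normalization) and 10 lower than at 72 h (5 with quantile normalization). The 2 became 0 without 40 h replicate 1, 1 without 60 h replicate 2, and 5 without 40 h replicate 2 or 60 h replicate 3.

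Glycolytic genes (11) held 0.215% and 0.238% in the 40 h libraries, 0.717%, 0.742% and 0.780% in the 60 h libraries, and 1.44% and 1.64% in the 72 h libraries. Gapdh2 led them, followed by Pglym78, a phosphoglycerate mutase gene (394, 478 and 484 RPKM), and Gapdh1 (316 ± 17 RPKM). Of the 11, 10 were called higher than at 40 h and 11 lower than at 72 h (10 with quantile normalization). The vacuolar ATPase pumps protons into organelles and synaptic vesicles, and its 16 genes held 1.61 ± 0.07%. Vha13 (926 ± 71 RPKM), Vha68-1 (877 ± 10 RPKM) and Vha14-1 (813 ± 112 RPKM) led. Of these 16 genes 15 were called higher than at 40 h and 14 lower than at 72 h (6 with quantile normalization).

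Other housekeeping lists held less. Translation factors (35) held 1.57 ± 0.05%, led by eEF1alpha2, the helicase gene eIF4A (646 ± 34 RPKM) and eEF5 (560 ± 48 RPKM). Of the 35, 2 were called higher and 13 lower than at 40 h, and 13 higher and 3 lower than at 72 h. With quantile normalization 1 was higher and 27 were lower than at 40 h, and 1 was lower than at 72 h. The 2 higher than at 40 h became 1 without 40 h replicate 1 or 2 or 60 h replicate 3, and the 3 lower than at 72 h became 1 without 60 h replicate 1 or 72 h replicate 1. Proteasome and ubiquitin genes (35, which include RpL40 and RpS27A of the ribosomal list) held 1.66 ± 0.05%, and Rpt3, for an ATPase of the proteasome, was the most abundant after those 2 at 201 ± 10 RPKM. Of these, 23 were called higher and 0 lower than at 72 h. The mitochondrial ribosome (71 genes) held 1.05 ± 0.01%, led by mRpL12 (137 ± 14 RPKM), mRpS18A (122 ± 7 RPKM) and mRpL28 (117 ± 8 RPKM), and 60 of the 71 were called higher than at 40 h.

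Chaperones held 1.28 ± 0.14%. After Hsc70-4 came Hsp83, the Hsp90 gene (1397, 1188 and 1133 RPKM), and Hsp26, a small heat shock gene that differed between libraries (592, 409 and 207 RPKM). Tubulins and microtubule genes held 1.04 ± 0.12%. betaTub56D had 1434, 1182 and 1014 RPKM and alphaTub84D 283, 234 and 218 RPKM, both highest in replicate 1, as alphaTub84B was. betaTub56D was lower at 60 h than at 40 h (1210 against 3461 RPKM, log2 difference -1.53 ± 0.17, SE, adjusted p = 2.7e-05). Actins and actin regulators held 0.546 ± 0.014%, led by the cytoplasmic actin gene Act42A (739 ± 48 RPKM), fax (277 ± 13 RPKM) and sqh, for a myosin light chain (187 ± 6 RPKM). Of the 25 genes of that list 15 were called lower than at 40 h and 20 higher than at 72 h.

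**Figure D2:**
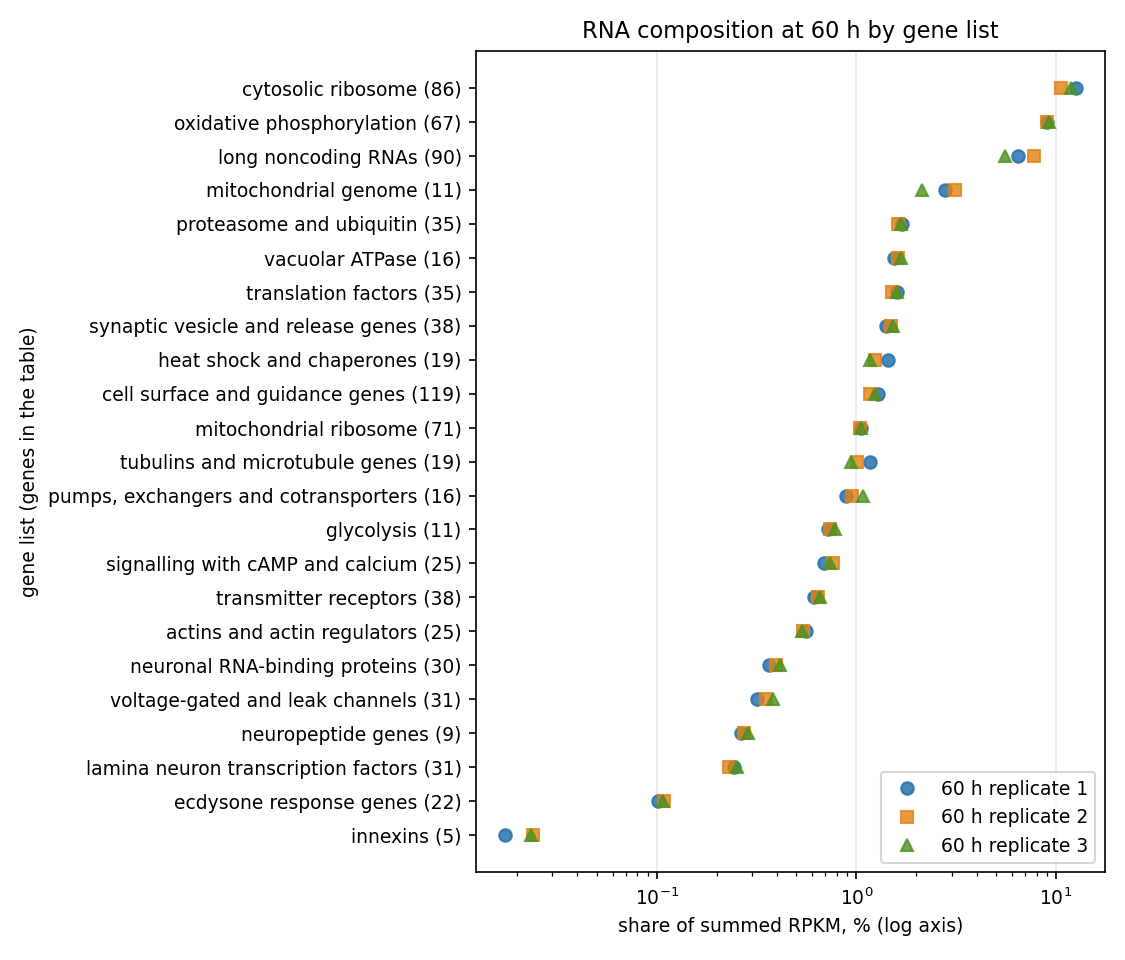
Share of summed RPKM held by each gene list at 60 h, in percent on a log axis, with 1 point for each of the 3 libraries. Cytosolic ribosome genes lie at the top at 10.6 to 12.6%, and oxidative phosphorylation genes follow at 9.02 to 9.21%.

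Long noncoding RNAs (90 genes) held 6.48%, 7.74% and 5.55%, nearly all of it lncRNA:noe. lncRNA:CR34335 had 1384, 875 and 650 RPKM and lncRNA:CR40469 516, 456 and 231 RPKM, both lowest in replicate 3. The median of the list was 4.58 RPKM, under the median of 16.6 RPKM over all genes, and 17 of the 90 averaged under 1 RPKM.

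Neuronal classes together held smaller shares, and within each a few genes stood out. Synaptic vesicle and release genes (38 in the table) held 1.47 ± 0.07%, with a median of 129 RPKM. Rop, whose product of the Sec1/Munc18 family guides vesicle fusion, had 664, 651 and 642 RPKM. AP-2sigma, for a clathrin adaptor subunit, had 503, 602 and 616 RPKM, and nSyb, the neuronal vesicle SNARE gene, 427, 471 and 481 RPKM. These 3 genes lay far above the median gene in every library, and they were named because they were the most abundant of the list. Of the 38 genes 29 were called higher and 4 lower at 60 h than at 40 h, and 4 higher and 19 lower than at 72 h. The 19 became 12 without 72 h replicate 1, and the 4 lower than at 40 h became 2 without 40 h replicate 2.

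Transmitter receptor genes were sharply divided. The list (38 genes) had a median of 1.94 RPKM, and 16 averaged under 1 RPKM, while 7 were at or above 100 RPKM. CG8916, which encodes a predicted subunit of GABA-gated chloride channels, had 940, 1013 and 1020 RPKM at 60 h, against a mean of 25.9 RPKM at 40 h (log2 difference 5.22 ± 0.12, SE, adjusted p = 4.9e-10). KaiR1D, a kainate-type glutamate receptor gene, had 374, 368 and 344 RPKM, and Lcch3, for another GABA receptor subunit, 291, 326 and 268 RPKM. KaiR1D was higher at 60 h than at 72 h (362 against 68.8 RPKM, log2 difference 2.40 ± 0.14, SE, adjusted p = 2.2e-06), whereas for CG8916 and Lcch3 the difference from 72 h missed the threshold (adjusted p = 0.46 and 0.84).

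Among ion channel genes the most abundant was Ih. It encodes the hyperpolarization-activated cation channel and had 266, 342 and 358 RPKM at 60 h against a mean of 16.5 RPKM at 40 h (log2 difference 4.21 ± 0.16, SE, adjusted p = 1.1e-08). Task7, for a potassium leak channel, averaged 172 ± 9 RPKM, and qvr, for a regulator of Shaker potassium channels, 131 ± 7 RPKM. Of the 31 voltage-gated and leak channel genes 18 were called higher and 2 lower than at 40 h. Among pumps, exchangers and cotransporters (16 genes, 0.969 ± 0.096%), Atpalpha led and the beta subunit gene nrv3 of the sodium pump had 1064, 1192 and 1239 RPKM. The potassium chloride cotransporter gene kcc had 509, 529 and 640 RPKM at 60 h against a mean of 8.78 RPKM at 40 h, a log2 difference of 5.85 ± 0.15 (SE, adjusted p = 6.9e-10). The libraries of the 2 ages did not come near each other for kcc.

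Cell surface and guidance genes formed the largest neuronal list (119 genes, 1.24 ± 0.06%). Their median was 7.72 RPKM, 26 averaged under 1 RPKM and 13 were at or above 100 RPKM. The most abundant was hig, for a secreted protein of the synaptic cleft, at 1148, 645 and 709 RPKM, highest in replicate 1. It averaged 1390 RPKM at 40 h, 834 RPKM at 60 h and 31.1 RPKM at 72 h. The log2 difference of 60 h was -0.78 ± 0.21 from 40 h (SE, adjusted p = 0.011, lost without 40 h replicate 1) and 4.65 ± 0.21 from 72 h (SE, adjusted p = 6.2e-07). beat-VI and dpr2, both immunoglobulin-domain genes, had 502 ± 33 and 269 ± 12 RPKM. Of the 119 genes, 111 were tested, of which 21 were called higher and 44 lower than at 40 h, and 35 higher and 20 lower than at 72 h. Over all genes tested, 25.2% and 22.5% were called against 40 h, and 16.4% and 16.6% against 72 h. The 20 lower than at 72 h lay close to the share of all genes, and the 21 higher than at 40 h under it. Of 5 innexin genes in the table, for gap junction proteins, shakB had 72.3, 99.7 and 84.5 RPKM, and ogre and Inx2 averaged 6.50 and 3.58 RPKM.

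Neuropeptide genes (9 in the table) held 0.275 ± 0.011%, and the leading ones encode processing proteins: 7B2, for a chaperone of a prohormone convertase (594 ± 16 RPKM), Pal2, for an amidating lyase (220 ± 12 RPKM), and amon, the convertase itself (201 ± 8 RPKM). Genes for signalling with cAMP and calcium (25) held 0.731 ± 0.038%, led by 14-3-3epsilon (601 ± 49 RPKM), 14-3-3zeta (460 ± 23 RPKM) and Ggamma1 (452 ± 28 RPKM). Neuronal RNA-binding protein genes (30) held 0.391 ± 0.025%, led by pAbp (353 ± 24 RPKM), ps, the Nova homologue (284 ± 35 RPKM), and Hrb98DE (183 ± 14 RPKM). Of these 30 genes, 19 were called lower than at 40 h and 13 higher than at 72 h, and ps was higher than at 40 h (284 against 21.4 RPKM, log2 difference 3.67 ± 0.13, SE, adjusted p = 9.9e-09).

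Ecdysone response genes were mostly at low RNA levels. Of 22 such genes in the table only Eip63E, for a cyclin-dependent kinase, exceeded 100 RPKM (200, 204 and 207 RPKM). The nuclear receptor genes ftz-f1 and Eip75B had 43.0, 65.0 and 54.8 RPKM and 42.2, 42.7 and 34.8 RPKM. The receptor pair EcR and usp averaged 26.6 and 30.7 RPKM. The zinc finger gene crol averaged 32.7 RPKM, Eip55E 30.8 RPKM, Hr78 16.5 RPKM and Hr4 14.1 RPKM. Eip74EF, Eip93F, tai, Hr3 and chinmo averaged 7.19, 6.01, 5.43, 4.04 and 2.71 RPKM. ImpL1, Eip71CD, Hr39, Eip78C and Hr38 lay between 1.03 and 1.62 RPKM, and Blimp-1, br and E23 at 0.604, 0.299 and 0.243 RPKM. ftz-f1 was the member with the steepest difference upwards from 40 h among those called (54.3 against 0.618 RPKM, log2 difference 5.08 ± 0.19, SE, adjusted p = 1.1e-08), and its difference from 72 h missed the threshold (adjusted p = 0.56). In all, 2 of the 21 tested were called higher and 11 lower than at 40 h, and 3 higher and 4 lower than at 72 h (2 lower without 72 h replicate 1). Over all genes tested, 25.2% and 22.5% were called against 40 h, and 16.4% and 16.6% against 72 h. The counts against 72 h lay close to those shares.

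Transcription factors of lamina neurons (31 in the table) had a median of 2.85 RPKM. The forkhead genes slp1 and slp2 led with 387, 341 and 353 RPKM and 206, 185 and 197 RPKM, followed by svp and by dac, for a nuclear cofactor, at 87.8, 88.0 and 88.5 RPKM. These 4 genes varied little between libraries. Jra, lola, sim and onecut averaged 62.5, 61.9, 52.9 and 45.4 RPKM. zfh1, zfh2, Pdp1, jim and scrt averaged 33.0, 25.1, 16.8, 10.8 and 10.3 RPKM. All others averaged under 4 RPKM: pdm3, kay, hth, Mef2, bsh and fru lay between 1.60 and 3.35 RPKM, Atf3 and CrebA at 1.06 and 1.05 RPKM, and bab2, ap, CrebB, toy, bab1, eya, ey, vri, so and pros between 0.285 and 0.940 RPKM. Of the 29 tested, 2 were called higher (4 with quantile normalization) and 11 lower (37.9%) than at 40 h, where 22.5% of all genes were called lower. The 11 became 6 without 40 h replicate 2, and 7 without 40 h replicate 1 or 60 h replicate 1 or 2. Against 72 h, 2 were called higher and 5 lower (17.2%), and the share called lower is close to the 16.6% of all genes. The 2 became 1 without 60 h replicate 2 or 3 or 72 h replicate 1, and the 5 became 1 without 72 h replicate 1, 2 without 60 h replicate 1, and 3 without 60 h replicate 2 or 72 h replicate 2.

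The spread between the 3 RNA libraries was small for most genes. Over the 4468 genes that averaged at least 10 RPKM, the median ratio of the highest to the lowest library was 1.18, and 80 genes (1.79%) reached a ratio of at least 2. Among these 80 genes replicate 3 was the lowest library for 40. The 10 genes with the largest ratios were CG40439, Cpn, CG34138, Npc2b, CG9150, ninaE, chp, vir-1, Gbeta76C and ninaC, with ratios of 367 for CG40439 and between 8.60 and 16.6 for the others. CG40439 had 21.3, 20.4 and 0.0581 RPKM, so replicate 3 alone lacked it. CG34138 had 245, 496 and 39.0 RPKM, and CG9150 63.1, 112 and 11.4 RPKM.

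Several of these genes are photoreceptor genes. chp, for the photoreceptor surface protein chaoptin, had 98.3, 186 and 19.7 RPKM, Gbeta76C, for a G protein subunit of phototransduction, 39.3, 82.9 and 8.99 RPKM, and ninaC, for a myosin of the rhabdomere, 33.7, 59.9 and 6.96 RPKM. Cpn, for calphotin, had 24.9, 38.5 and 2.32 RPKM. All 4 were highest in replicate 2 and lowest in replicate 3, while ninaE, the major rhodopsin gene, had 2.54, 24.2 and 16.7 RPKM. The 16 photoreceptor markers in the table (of 21 listed) summed to 62.6 and 159 RPKM in the 40 h libraries, to 400, 707 and 197 RPKM in the 60 h libraries, and to 201 and 278 RPKM in the 72 h libraries. Their part in the levels of other genes was not tested. Npc2b (2.55, 6.14 and 28.3 RPKM) went the other way and was highest in replicate 3, and vir-1 had 22.6, 43.7 and 4.65 RPKM.

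Open chromatin at 60 h was spread over 26121 deposited peaks. Distance to the nearest gene start was the authors' own annotation, and a distance of 0 is taken here as a promoter peak. Of all peaks 6171 (23.6%) were promoter peaks, 2565 lay within 1 kb, 6989 between 1 and 10 kb, and 10396 (39.8%) beyond 10 kb. Promoter peaks held 43.3% of the reads in peaks of replicate 1 and 38.2% of replicate 2. Their median level was 68.6 RPKM in replicate 1 and 57.4 RPKM in replicate 2, while peaks beyond 10 kb had 31.2 and 42.7 RPKM. Promoter peaks were thus the more open class in both libraries, by a smaller margin in replicate 2. Of promoter peaks 20.1% were among the 10% most open of all peaks, and of peaks beyond 10 kb 5.18%.

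The peaks of highest level, called the most open here, lay in repeated and heterochromatic sequence. The sources used here do not say how reads from repeated sequence were placed. The level of such a peak therefore need not measure how open a single copy is. The top peak, on the Y chromosome at Y:1642046-1642619 (positions as deposited, on a build that the sources used here do not name), had 1556 RPKM in replicate 1 and 2699 RPKM in replicate 2, with Ppr-Y as its nearest gene. Peaks near CR41379 (chromosome 2R), kl-2 (Y), Pzl (3R), kl-5 (Y), CR41519 (2L), PRY (Y) and ORY (Y) followed, with means from 1956 down to 979 RPKM. kl-2, kl-5, PRY, ORY and Ppr-Y are genes of the Y chromosome, and kl-2 and kl-5 encode dynein heavy chains of sperm. In each of these 8 peaks replicate 2 was 1.62 to 2.11 times replicate 1.

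The remaining 7 of the 15 most open peaks differed less between libraries. A peak 1094 bp from the ribosomal RNA pseudogene 28SrRNA-Psi:CR45859 on chromosome X had 707 and 713 RPKM, and one nearest to mir-10404-5 on chromosome X had 625 and 773 RPKM. The other 5 were promoter peaks of histone genes of the repeated cluster on chromosome 2L: His3:CG33842, His3:CG33833, His4:CG31611, His3:CG33809 and His3:CG33815. The first of them, at 2L:21499305-21500162, had 657 and 742 RPKM, and their means ran from 598 to 699 RPKM. Of the 15 only 28SrRNA-Psi:CR45859 was a gene of the RNA table, at 5.58 RPKM of RNA. Of the 40 most open peaks 12 were nearest to histone genes, 14 to snmRNA:430 copies and 5 to ribosomal RNA genes, and 27 lay on chromosome 2L.

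Set against the neighbouring ages in a limma fit over 23508 peaks on log2(level + 1), the 15 most open peaks gave no calls. Of all peaks tested 26.7% were called against 40 h and 5.11% against 72 h. The lowest adjusted p among the 15 was 0.231 against 40 h and 0.170 against 72 h, and 0 and 2 of them had an unadjusted p under 0.05. A p that misses the threshold does not show that these peaks were as open at the other ages.

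Outside such sequence, single promoter peaks of genes in the RNA table were led by Su(z)2, for a Polycomb group protein, at 254 and 251 RPKM. cpx, for the SNARE regulator complexin, followed with 244 and 239 RPKM at 3R:4280497-4282657, then CG13204 (243 and 226 RPKM), the Sox factor gene SoxN (238 and 225 RPKM) and Eip74EF (235 and 225 RPKM). HmgZ (229 and 229 RPKM), kay, the Fos gene (233 and 225 RPKM), and GluClalpha, for a glutamate-gated chloride channel (231 and 222 RPKM), came next. The 2 libraries lay close to each other in all of these. The promoter peak of lncRNA:noe, at 3L:17400650-17401786, had 229 and 214 RPKM.

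The 2 ATAC libraries at 60 h differed by kind of peak. Promoter peaks correlated at 0.927 between them, against 0.848 for all peaks. Replicate 2 was higher in 70.01% of the peaks beyond 10 kb and in 17.6% of promoter peaks. The Y chromosome was the extreme case, since 98.2% of its 614 peaks were higher in replicate 2, with medians of 28.9 RPKM in replicate 1 and 50.3 RPKM in replicate 2. In all 1109 peaks (4.25%) differed at least 2-fold, 890 of them higher in replicate 2.

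Among peaks above the median level, the 10 with the largest ratios included 5 peaks nearest to the 28S ribosomal RNA pseudogenes CR40741 and CR41609, and 1 each at lncRNA:CR45456, tRNA:Leu-TAA-2-1, Ero1L, lncRNA:iab8 and 2SrRNA:CR45864. All 10 were lower in replicate 2. The first of them had 85.2 RPKM in replicate 1 and 9.19 RPKM in replicate 2, and the same peak had 61.5 RPKM and 8.12 RPKM in the replicates 1 and 2 at 72 h. Of the 10 largest ratios in the other direction, 9 were at peaks of chromosome 3R whose nearest annotated gene, Myo81F, lay 60995 to 565179 bp away, and 1 was nearest to Muc68E on chromosome 3L. The peak with the largest ratio had 23.01 RPKM in replicate 1 and 71.3 RPKM in replicate 2. Replicate 2 at 60 h thus lay nearer to 72 h there, where that peak averaged 73.8 RPKM. The cause of the difference between the libraries was not tested.

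**Figure D3:**
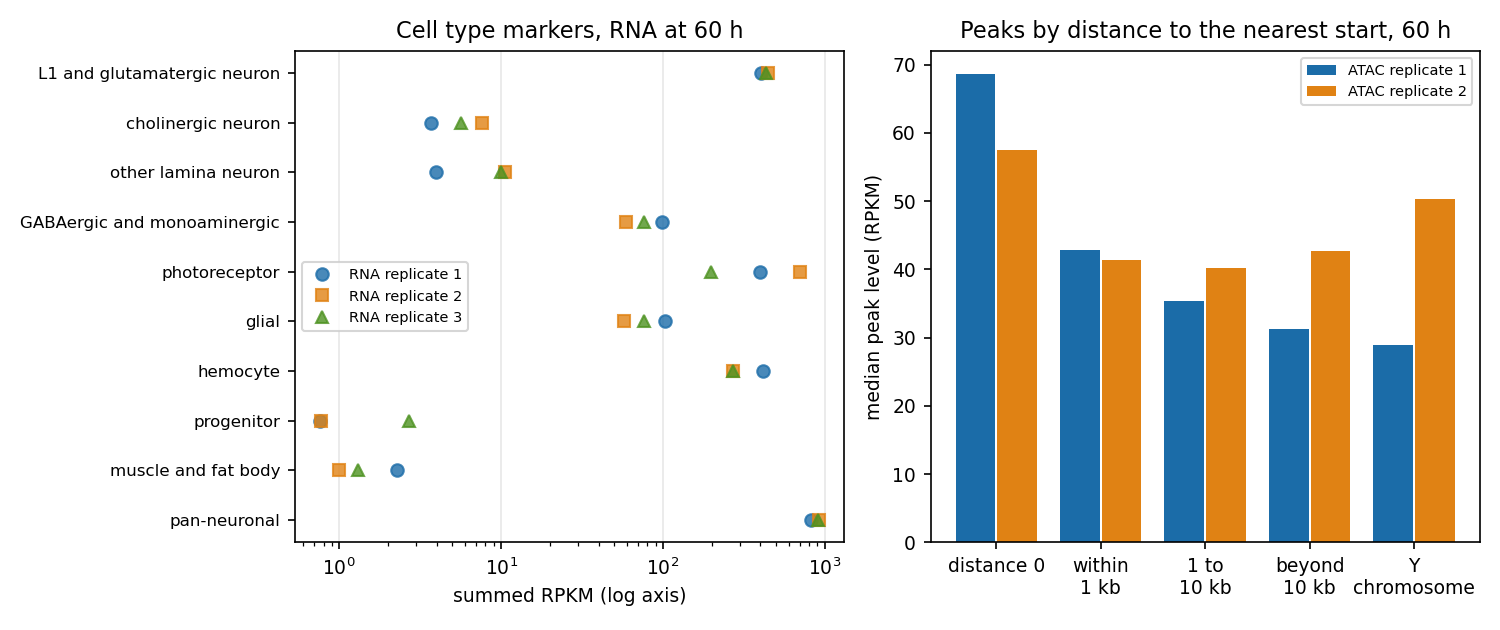
Differences between libraries at 60 h. Points are the summed RPKM of each marker list in the 3 RNA libraries, on a log axis, and bars the median peak level (RPKM) in the 2 ATAC libraries by distance to the nearest gene start and for all peaks on the Y chromosome. Photoreceptor markers sum to 400, 707 and 197 RPKM, and peaks beyond 10 kb have medians of 31.2 and 42.7 RPKM in replicates 1 and 2.

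RNA and chromatin were joined through the gene symbol. At least 1 promoter peak was found for 4608 of the 7076 genes (65.1%), 4209 of them exactly 1, 399 at least 2, and at most 5. Genes with a promoter peak had a median of 21.3 RPKM of RNA and genes without one 10.0 RPKM, a difference seen in each RNA library (21.3 against 9.87, 21.2 against 9.77 and 20.8 against 9.24 RPKM). With the genes split into 5 equal groups from low to high RNA, the share with a promoter peak was 45.0%, 62.0%, 68.6%, 72.1% and 78.0%. A peak was thus more often present the higher the RNA group.

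Among genes with a promoter peak, the level of the promoter followed RNA only weakly. Summed over its promoter peaks, a gene's level had a median of 66.1 RPKM. Over the same 5 RNA groups this median was 61.2, 60.3, 63.3, 67.5 and 75.5 RPKM among genes with a peak. Read the other way, the median RNA over 5 equal groups from low to high promoter level was 14.6, 19.8, 21.9, 24.7 and 26.9 RPKM. Across the 4608 genes Spearman's rho was 0.162 and Pearson's r of log2 values 0.166. The 6 pairings of an RNA library with an ATAC library gave rho from 0.141 to 0.171. The same genes gave 0.103 at 40 h, 0.162 at 60 h and 0.224 at 72 h. These are descriptions across genes that share libraries, and the difference between ages was not tested.

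**Figure D4:**
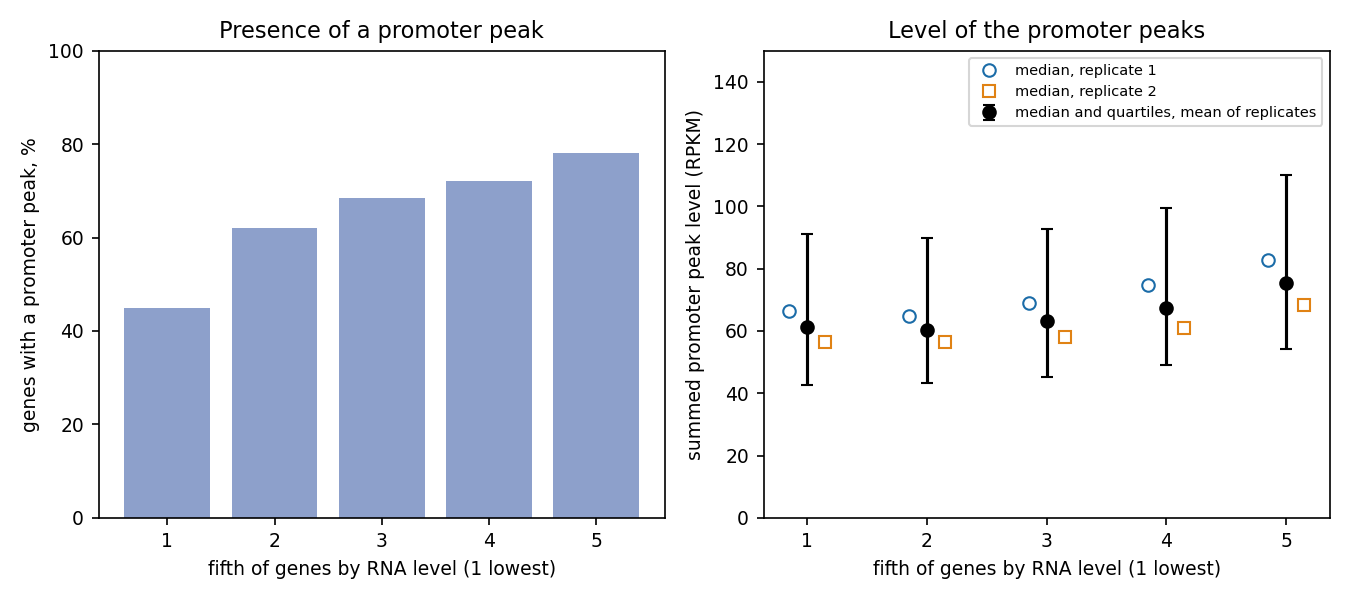
Share of genes with a promoter peak, in percent, and summed promoter level, in RPKM, over 5 equal groups of genes by RNA level at 60 h. In the panel of levels, filled points and bars are medians and quartiles, and open points the median of each library. The share runs from 45.0% in the lowest group to 78.0% in the highest, while the median level runs from 61.2 to 75.5 RPKM.

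Read by function, RNA and promoter level did not follow the same order. Ribosomal genes had a median promoter level of 66.2 RPKM, near the median of 66.1 RPKM over all genes with a promoter peak, although their median RNA was 622 RPKM against 16.6 RPKM over all genes. Oxidative phosphorylation genes had 56.9 RPKM, proteasome and ubiquitin genes 54.8 RPKM and the mitochondrial ribosome 45.2 RPKM, all below that median. Other abundant classes lay above it. The vacuolar ATPase had 72.0 RPKM (median RNA 481 RPKM), translation factors 69.5 RPKM (121 RPKM of RNA), glycolytic genes 102 RPKM (195 RPKM of RNA), chaperones 116 RPKM (162 RPKM of RNA) and tubulins and microtubule genes 111 RPKM (78.0 RPKM of RNA). The highest promoter levels by function were those of ecdysone response genes (170 RPKM), lamina neuron transcription factors (139 RPKM) and neuronal RNA-binding protein genes (131 RPKM). Neuronal effector lists also lay above the median, with pumps at 119 RPKM, channels at 114 RPKM, synaptic vesicle and release genes at 105 RPKM, surface genes at 85.0 RPKM and transmitter receptors at 81.2 RPKM.

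Across the 21 lists with at least 5 members that had a promoter peak, Spearman's rho between the median RNA and the median promoter level was -0.44. It was -0.43 when the highest promoter peak of each gene replaced the sum. The RNA median was over all members of a list, and the promoter median over the members with a promoter peak (61 of 86 ribosomal genes). Lists also share members, so this is a description of these lists. The share of members with a promoter peak followed another order. It was 70.9% for ribosomal and 71.6% for oxidative phosphorylation genes, 93.5% for lamina transcription factors, 94.7% for receptors, 26.7% for long noncoding RNAs and 0 of 11 for the mitochondrial genome, against 65.1% of all genes.

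**Figure D5:**
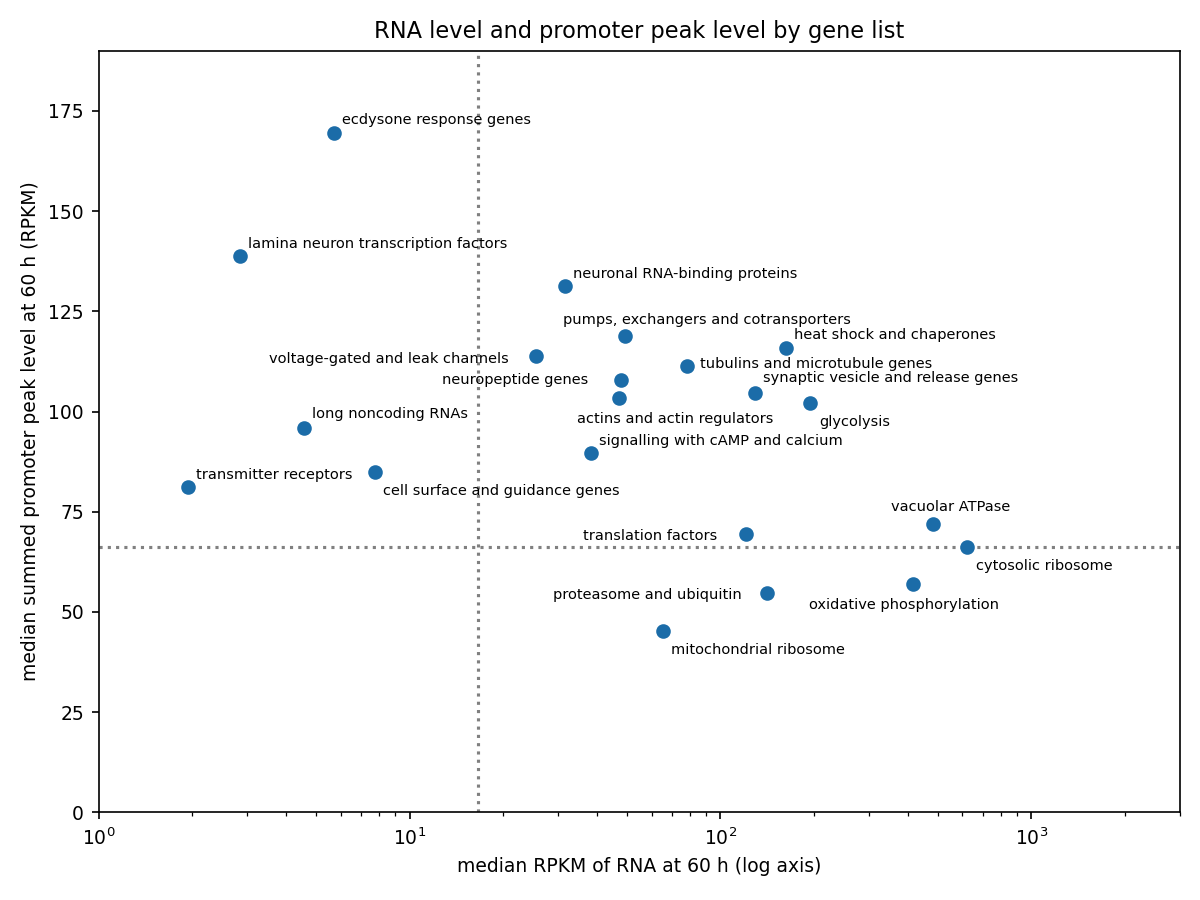
Median RNA level (RPKM, log axis) against median summed promoter level (RPKM) of gene lists at 60 h, where each point is a list. RNA medians are over all members and promoter medians over the members with a promoter peak. Dotted lines mark the medians taken in the same way for all genes. Ecdysone response genes lie at the top with 170 RPKM of promoter level, and ribosomal genes at the right with 622 RPKM of RNA and 66.2 RPKM of promoter level.

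The members of the ecdysone and lamina factor lists were of several kinds. Of the 53 genes of the ecdysone and lamina factor lists, 20 had a promoter level above the median of 66.1 RPKM with RNA below the median of 16.6 RPKM, and 16 had such a promoter level with RNA at or above that median. A further 9 had promoter levels at or below the median, and 8 had no promoter peak. The share of all genes of each kind is not given here, so these counts do not set the lists apart from other genes. Hr3, a nuclear receptor gene, had promoter levels of 317 and 307 RPKM with an RNA mean of 4.04 RPKM. Eip93F had 296 and 279.5 RPKM with 6.01 RPKM of RNA, and Eip74EF 311 and 299 RPKM with 7.19 RPKM of RNA. kay had 326 and 308 RPKM with 2.98 RPKM of RNA, and the MADS-box gene Mef2 303 and 286 RPKM with 2.78 RPKM of RNA. EcR had 348 RPKM with 26.6 RPKM of RNA, Eip63E 311 RPKM with 204 RPKM of RNA, Eip75B 218 RPKM and ftz-f1 213 RPKM. So the highest promoter sums of the ecdysone list belonged to genes from 4.04 to 204 RPKM of RNA. Each gene named here had 2 promoter peaks, or 3 for EcR, Eip63E and Eip75B. Of the 4608 genes with a promoter peak, 4209 had exactly 1, so sums over several peaks favour a place above the median. With only the highest peak of each gene, the median was 144 RPKM for the ecdysone list and 65.2 RPKM for all genes.

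Further down the ecdysone list, crol, tai, Hr38 and Hr39 had promoter levels of 173, 166, 160 and 132 RPKM. chinmo, Eip78C, Hr78, Hr4 and Eip55E had 99.5, 90.5, 80.5, 49.9 and 41.2 RPKM. usp, ImpL1, Eip71CD, Blimp-1, br and E23 had no promoter peak.

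Among lamina factors jim had 334 RPKM over 2 promoter peaks, with 10.8 RPKM of RNA. zfh2, dac and hth had 207, 207 and 205 RPKM (1, 1 and 2 peaks) with 25.1, 88.1 and 2.85 RPKM of RNA. slp1, fru, zfh1, svp and sim lay from 158 to 181 RPKM, although their RNA ran from 1.60 RPKM for fru to 361 RPKM for slp1. pdm3, scrt, Atf3, CrebB, slp2, Pdp1 and vri lay from 129 to 152 RPKM. lola, onecut, Jra and ey had 104.3, 99.7, 87.3 and 84.6 RPKM, and bab2, ap, toy, so, eya, CrebA and pros 22.1 to 61.8 RPKM. Only bsh and bab1 of the 31 had no promoter peak.

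The 10 genes with the highest summed promoter level had mean RNA levels from 1.91 RPKM (sif) to 312 RPKM (HmgZ). sif, for a Rac exchange factor, had 5 promoter peaks that summed to 877 and 794 RPKM, with RNA of 1.70, 2.19 and 1.84 RPKM. cpx followed with 3 peaks and 644 and 622 RPKM, with RNA of 269, 317 and 281 RPKM. HmgZ, for a high mobility group protein, had 610 and 584 RPKM with RNA of 277, 355 and 305 RPKM. Thus the first and the second promoter in this order differed by more than 100 RPKM of RNA in every library. fs(1)h, a BET bromodomain gene, had 535 RPKM with 16.01 RPKM of RNA, and brat, for a translational repressor, 501 RPKM with 6.70 RPKM of RNA. shep, Hers, rdx, bun and mtd had 495, 479, 463, 457 and 435 RPKM, with RNA of 180, 59.7, 47.6, 33.9 and 15.9 RPKM. Each of the 10 had 3 to 5 promoter peaks.

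Some promoters were open while RNA was close to 0. Of the 578 genes under 1 RPKM 212 had a promoter peak. Stacl had the highest level of them (427 and 380 RPKM over 3 peaks, with RNA of 0.706, 0.740 and 0.481 RPKM). Octbeta2R, an octopamine receptor gene, had 227 and 217 RPKM with RNA of 0.561, 0.446 and 1.03 RPKM. The others of the 10 highest were lncRNA:CR45919, asRNA:CR45281, CAP, the homeobox gene dve, the RNA-binding protein gene bru3, r, which encodes an enzyme of pyrimidine synthesis, the zinc finger gene tio, and trv, from 215 down to 162 RPKM. In the RNA table Octbeta2R was lower at 60 h than at 72 h (0.678 against 5.50 RPKM, adjusted p = 3.9e-04), and tio was lower at 60 h than at 40 h (0.412 against 6.13 RPKM, adjusted p = 5.3e-05).

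Some abundant genes had no promoter peak of their own. The 10 most abundant of them were mt:lrRNA, ATPsynbeta, mt:CoIII, His4r, mt:CoI, levy, RpL14 (1206 ± 86 RPKM), COX7A (1202 RPKM), Mdh2, for mitochondrial malate dehydrogenase (1176 RPKM), and RpS25 (1152 ± 93 RPKM). The 3 mitochondrial ones lie outside the nuclear genome. The nuclear ones were set beside their neighbours in the RefSeq gene order, since a peak is given to 1 nearest gene only. All of the 10 most abundant nuclear genes without a promoter peak had an adjacent gene with one, such as wmd and pita beside levy, and Nelf-E beside RpL14. Over all genes 60.9% of those with and 72.9% of those without a promoter peak had such a neighbour. Of the 175 genes at or above 100 RPKM without a promoter peak, 131 had one (74.9%). Whether these peaks also cover the start of the neighbouring gene was not tested.

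Promoter peaks also marked genes that were not in the RNA table used here. There were 1072 such symbols, and the 5 with the highest level were the histone genes His3:CG33842, His3:CG33833, His4:CG31611, His3:CG33809 and His3:CG33815 described above.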

How the data were processed

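RNA values were deposited by the authors as RPKM per gene, per the file headers. ATAC values were deposited per peak with no unit and were read as RPKM of each peak (signal over the peak's width). Peaks had been called on merged libraries, per the peak names in the deposited table, and carried the authors' nearest gene and distance. Per the submitters' processing notes, Seurat 3.1.2, MACS2 2.1.1, edgeR 3.26.8, Bowtie2 2.2.9, bedtools and Cell Ranger 3.1.0 had been used, with no role given. The sources used here do not give build, counting or the filter behind 7076 genes.

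Groups came from the labels. Effective RNA size was estimated from the steps of low values, taken with RefSeq gene lengths. Reads were whole within 0.01 for only about 18% of the genes used, so these sizes are estimates. For the comparisons between ages, log2(value + 1) was fitted over all ages with limma 3.58.1 (R 4.3.3; lmFit, contrasts.fit, eBayes with trend, no block, two-sided, Benjamini-Hochberg, threshold 0.05), for genes of at least 1 RPKM in at least 2 libraries and for peaks above the lowest 10% of mean level. This log scale understates the change of low features. The steps were also run on simulated data with planted changes, independent normal noise and the variances of the fit itself. Such data lack the shared deviations of the ATAC libraries, so that run does not test the calls given here. Descriptive values used Python 3.11.15, numpy 2.4.6, pandas 2.3.3 and scipy 1.17.1, and figures matplotlib 3.10.9. Symbols were joined as deposited, and 6643 equalled a RefSeq symbol (Release 6 plus ISO1 MT).

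Named were the 25 most abundant genes, the 3 leading genes of each list, the 15 most open peaks, the 10 genes at each extreme of promoter level against RNA or of the spread between libraries, and all members of the ecdysone and lamina factor lists. The Myo81F peak, the most open single promoter peaks and the genes singled out for a comparison with another age were chosen after their values were seen. Members and lists were chosen with earlier results of these data known. Alternatives were other pseudocounts, filters, scalings, promoter definitions, a replicate block and leaving out libraries. Promoter motifs were not analysed here.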

Additional observations from a re-analysis of the deposited data

How the results depend on the processing

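Calls between ages depended most on single ATAC libraries. Against 40 h, 6272 peaks were called (3526 to 10564 with 1 library left out, the lowest without 40 h replicate 2 and the highest without 60 h replicate 1). Against 72 h, 1201 were called (218 to 6199, the lowest without 72 h replicate 2 and the highest without 60 h replicate 2; 525 without 60 h replicate 1 and 515 without 72 h replicate 1). Quantile normalization lowered the share of calls higher than at 72 h to 74.91%, against 85.85%. The RNA calls, 3312 against 40 h and 2290 against 72 h, stayed within 1.5 times with any 1 library left out (2705 to 3010 and 1559 to 2046). They fell to 2129 and 1013 without 60 h replicates 1 and 2 together, a setting chosen after seeing the data.

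Same-numbered ATAC libraries deviated together at 60 and 72 h (correlation 0.55) and in opposite directions at 60 and 40 h (-0.47), and the RNA correlations were -0.09 to 0.04. With 2 numbers shared per comparison and no label that links them, the numbers were not taken to pair the libraries. A replicate block gave 3027 and 2099 RNA calls and 6480 and 1511 ATAC calls. With the 40 h numbers crossed in the block, added after seeing the data, 9509 peaks were called against 40 h.

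Spearman's rho of RNA and promoter level was 0.1621, with 0.1745 for the highest promoter peak, 0.1824 for genes with exactly 1, 0.1482 to 0.1676 with 1 library left out, and 0.2657 when genes without a promoter peak stood at level 0 (added after seeing the data). Without the 10 most abundant genes the ribosomal share was 13.24%, the long noncoding share 0.6934% and the mitochondrial genome share 0.9433%. The other alternatives, 48 in all, stayed within the spread or within 1.5 times.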
